A study of Prunus persica with 9 samples.

Results

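The miRNA genes miR396b (ENSRNA050003821), miR159 (ENSRNA050003799), miR166e (ENSRNA049996894) and miR172b (ENSRNA049996345) were taken by their identifiers from the 210 pre_miRNA genes of a peach leaf miRNA-Seq table, so that 4 of 210 genes are described. PpPep2 is a peach plant elicitor peptide, a short peptide that plants perceive as a signal of damage, and it was sprayed at 1 μM on the youngest fully expanded leaves of glasshouse-grown juvenile Prunus persica var. Big Top plants produced in vitro. Treated leaves were taken 1 h and 24 h after the spray, and control leaves without PpPep2 at the start (t0), with 3 libraries for each of the 3 conditions. Each library was made from leaf blades without the central vein, and the study's methods give each replicate as a set of several plants, all of 1 cultivar. The sample labels describe the control as mock and the series description describes it as untreated. All control libraries are from t0, so that PpPep2 and the passage of time cannot be told apart.

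Plant miRNAs are cut from hairpin precursors and guide the silencing of mRNAs with a nearly complementary site, and many conserved families act on transcription factors that shape leaves, shoots and flowers. In Arabidopsis and other plants, miR396 acts on growth-regulating factors (GRF), which promote cell proliferation in young leaves, and miR159 acts on GAMYB-like MYB factors of growth and anther development. In the same plants, miR166 acts on the HD-ZIP III factors, which set the upper side of the leaf and vascular patterning, and miR172 acts on AP2-like factors, which delay flowering and the adult phase.

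The mature sequences, from the study's supplementary list of mature miRNAs, are given to show how far the 4 miRNAs differ over their length and in the seed. Capitals mark the seed (bases 2 to 8 from the 5′ end).
miR396b: uUCCACAGcuuucuugaacuu
miR159: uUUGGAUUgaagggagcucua
miR166e: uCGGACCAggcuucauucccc
miR172b: aGAAUCUUgaugaugcugcau
All 4 mature miRNAs are 21 nucleotides long, and 3 of them begin with U. None shares its sequence or its seed with another of the 39 listed miRNAs, and pairs of the 4 are identical at 4 to 6 of 21 positions. The GC content was 61.9% in miR166e, 42.9% in miR159, and 38.1% in both miR396b and miR172b. Whether other loci of the genome give the same mature RNA was not checked, so the values belong to the annotated genes and not to whole families.

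Depth is given as reads on pre_miRNA genes, estimated from the step between values that was taken as 1 read in each library, and ranged from 115519 (t0 replicate 2) to 546709 (t0 replicate 3). The step rests on 64 to 80 low values per library, below the 100 set as needed to treat values as recovered reads, so read numbers and counting errors are estimates. A level of 3 reads corresponded to 1.46 to 8.53 normalized counts, and all 4 genes lay above it in all 9 libraries. Among the libraries, 1 h replicate 1 stood apart from the other 1 h libraries. It was the 1 h library nearest to the t0 mean for 68 of the 135 genes tested (50.4%), against 28 and 39 genes for 1 h replicates 2 and 3. The table holds only pre_miRNA genes, so the tissue could not be checked against leaf marker genes. Fewer cells of a type and less RNA per cell cannot be told apart in these leaf libraries.

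The 4 genes differed widely in abundance. Levels are in normalized counts per pre_miRNA gene, with mature RNAs of 1 length, and whether library preparation captures the 4 sequences equally was not tested. miR396b was by far the most abundant, with a mean of 11668 normalized counts over the 9 libraries, rank 8 of 210 genes and 2.58 to 5.04% of a library. miR166e followed with a mean of 1489 normalized counts, rank 25 and 0.149 to 0.947% of a library. miR159 had a mean of 105.5 and miR172b of 90.6 normalized counts, ranks 62 and 65. The order of these 2 was not the same in every condition, since the mean of miR172b was above that of miR159 at t0 and 1 h and below it at 24 h. The 4 genes together held 3.49 to 5.32% of the counts in a library. miR396b made up 73.8 to 76.8% of that sum at t0, 80.3, 94.6 and 93.8% in 1 h replicates 1, 2 and 3, and 92.5 to 94.9% at 24 h.

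**Figure D1:**
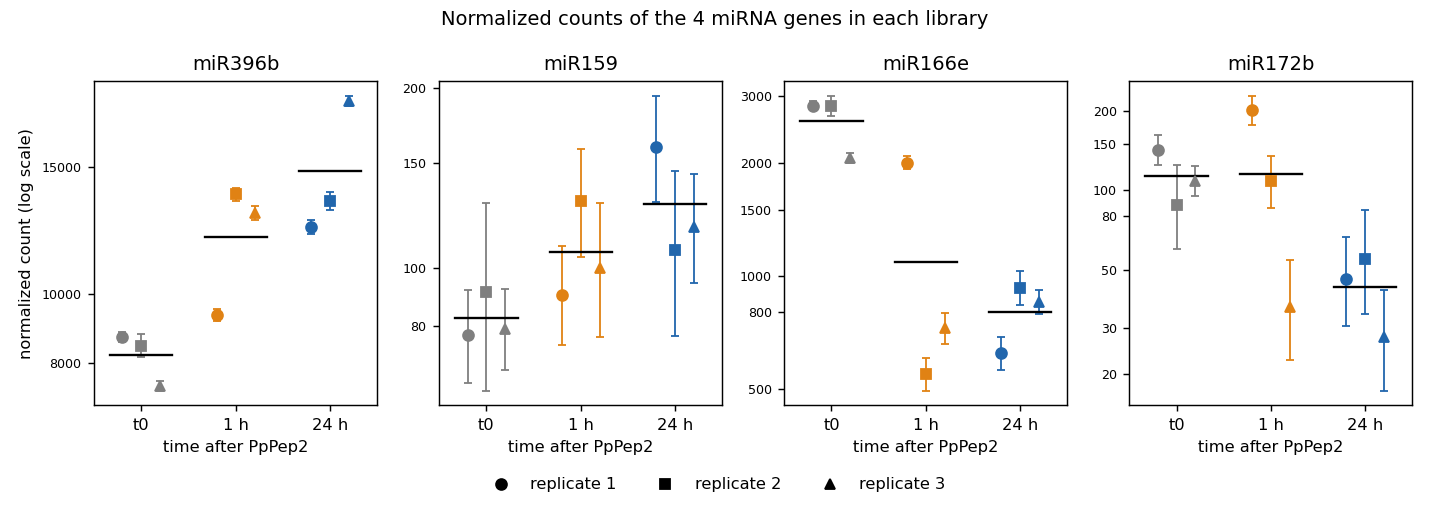
Normalized count of each gene (vertical log axis, a different range in each panel) in every library at t0, 1 h and 24 h, with replicates by symbol, exact Poisson 95% counting intervals as bars and the mean of each condition as a line. At 24 h, miR396b and miR159 lie above all their t0 libraries, and miR166e and miR172b below all their t0 libraries.

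The GRF regulator miR396b was higher at 24 h than at t0. It had 12382, 13457 and 18555 normalized counts at 24 h, against 8701, 8465 and 7443 at t0. The lowest 24 h library lay above the highest t0 library, and the spread at t0 was small, with a coefficient of variation (CV) of 8.15%. The mean was 14798 ± 3298 at 24 h and 8203 ± 669 at t0 (SD, n = 3 each), a ratio of means of 1.80. The log2 fold change on log2(normalized count + 1) was 0.83 (SE 0.21, 95% interval 0.36 to 1.31), and the gene rose in limma with Benjamini-Hochberg adjusted p = 0.0363. At 1 h, miR396b had 9331, 13745 and 12933 normalized counts, so that replicate 1 was the only 1 h library near the t0 values and the other two reached those of 24 h. Although all 3 of the 1 h libraries exceeded all t0 libraries, the log2 fold change of 0.53 (interval 0.06 to 1.01) did not pass (limma adjusted p = 0.267). The fits were repeated under 11 other settings of the processing. Of these, the setting meant to scale libraries to raw read totals multiplied by the step of each library where it should have divided. Its values are left out of the ranges given here and below. The call at 24 h passed in 6 of the 11 (limma adjusted p from 0.00482 to 0.0748). It was lost without any 1 of the 6 libraries compared, with adjusted p = 0.0686, 0.0888 and 0.103 without t0 replicates 1, 2 and 3, and 0.0646, 0.0606 and 0.109 without 24 h replicates 1, 2 and 3.

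The MYB regulator miR159 also had higher values at 24 h, with a smaller difference that did not pass the test. Its values were 159.1, 107.2 and 117.0 normalized counts at 24 h, against 77.1, 91.0 and 79.1 at t0. The groups did not overlap, but the lowest 24 h value and the highest t0 value rest on 41 and 32 reads and their counting intervals overlap. The mean was 128 ± 27.6 at 24 h and 82.4 ± 7.52 at t0 (SD, n = 3 each), and the log2 fold change was 0.61 (SE 0.22, interval 0.10 to 1.12, limma adjusted p = 0.0999). It passed in 1 of 11 other settings, the same upper quartile (adjusted p = 0.0425), with a range from 0.0425 to 0.373. At 1 h, miR159 had 90.1, 129.2 and 99.9 normalized counts. The lowest of these lay inside the t0 range, and the log2 fold change from t0 was 0.35 (interval -0.16 to 0.86, limma adjusted p = 0.427). Counting error alone gave a CV of 13.0% at t0, where the measured CV was 9.13%, so the spread of miR159 at t0 was no larger than its read numbers allow.

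The HD-ZIP III regulator miR166e fell at 24 h, with the largest change in absolute size among the 4 genes at that time. It had 623, 928 and 852 normalized counts at 24 h, against 2835, 2830 and 2057 at t0. The highest 24 h library was below the lowest t0 library by a wide gap. The mean was 801 ± 159 at 24 h and 2574 ± 447 at t0 (SD, n = 3 each), so that 24 h leaves had 0.311 times the t0 mean. The log2 fold change was -1.69 (SE 0.44, interval -2.68 to -0.70, limma adjusted p = 0.0363). This call passed in 6 of 11 other settings (limma adjusted p from 0.00246 to 0.104). It too was lost without any 1 of the 6 libraries compared, with adjusted p = 0.0833, 0.0953 and 0.0747 without t0 replicates 1, 2 and 3, and 0.102, 0.0606 and 0.104 without 24 h replicates 1, 2 and 3.

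At 1 h, miR166e split between libraries. Its normalized counts were 1999 in replicate 1, 547 in replicate 2 and 726 in replicate 3. Replicate 1 lay just below the lowest t0 library, and replicates 2 and 3 lay within or below the 24 h range, a 3.65-fold difference within the condition. This is far beyond counting error, which alone gave a CV of 3.16% at 1 h where the measured CV was 72.6%. The mean was 1091 ± 792 at 1 h (SD, n = 3). The log2 fold change from t0 was -1.46 (SE 0.44, interval -2.45 to -0.47), with no overlap between the groups and limma adjusted p = 0.152. However, the counting intervals of 1 h replicate 1 (1921 to 2080) and t0 replicate 3 (1996 to 2120) overlap. In a fit without 1 h replicate 1, chosen for mention after the data were seen, 18 of the genes tested were called at 1 h against 1 with it. There miR166e at 1 h fell by 2.01 on the log2 scale (limma adjusted p = 0.00320), and miR396b rose by 0.70 (adjusted p = 0.0427). Across the other settings, the 1 h limma adjusted p ran from 0.127 to 0.328 for miR166e and from 0.0186 to 0.432 for miR396b.

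The AP2 regulator miR172b had lower values at 24 h and the largest residual SD of the 4, with a difference that did not pass the test. It had 45.9, 54.9 and 27.7 normalized counts at 24 h, against 143.0, 88.2 and 108.9 at t0. No 24 h library reached the t0 range, although each 24 h value rests on only 21 to 28 reads. The lowest t0 value, in replicate 2, rests on 31 reads, and its counting interval overlaps those of 24 h replicates 1 and 2. The mean was 42.8 ± 13.9 at 24 h and 113 ± 27.7 at t0 (SD, n = 3 each), a ratio of 0.378. The log2 fold change of -1.41 (SE 0.56, interval -2.69 to -0.13) did not pass (limma adjusted p = 0.122). It passed without 1 h replicate 1 (adjusted p = 0.0472) or 1 h replicate 3 (0.0351), and in a fit to only the 6 libraries compared (0.0168), with the fold change unaltered in each. Across the other settings its limma adjusted p ran from 0.0168 to 0.234, the highest with no minimum mean.

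The 1 h libraries of miR172b had no common direction. They held 202.2, 108.6 and 36.0 normalized counts in replicates 1, 2 and 3, so that replicate 1 was above every t0 library, replicate 2 within the t0 range and replicate 3 within the 24 h range. The values differ by 5.61-fold within the condition, with a measured CV of 72.0% where counting error alone gave 9.64%. The mean at 1 h, 116 ± 83.3, was close to that at t0, 113 ± 27.7 (SD, n = 3 each), and the log2 fold change from t0 was -0.26 (interval -1.54 to 1.02, limma adjusted p = 0.830). Without 1 h replicate 3 it was 0.41, and without 1 h replicate 1 it was -0.82. It was also above 0 with libraries scaled to the same upper quartile (0.058).

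**Figure D2:**
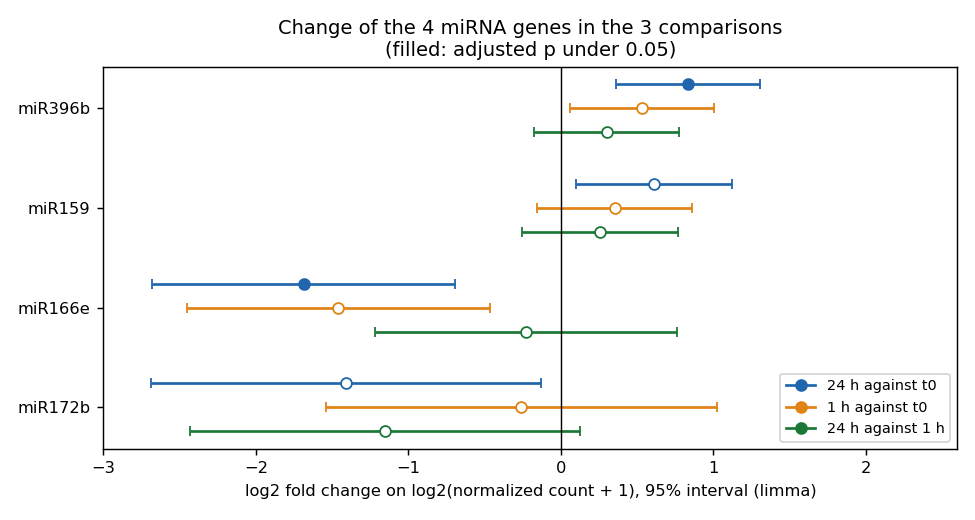
Log2 fold change of each gene on log2(normalized count + 1) with its 95% interval from limma (horizontal axis), for 24 h against t0, 1 h against t0 and 24 h against 1 h, with filled points where the adjusted p was under 0.05. Only miR396b (0.83) and miR166e (-1.69) at 24 h against t0 have filled points.

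Of the 4 genes, 2 were called at 24 h against t0, 1 higher and 1 lower, where 14.1% of the 135 genes tested were called (5.19% higher and 8.89% lower). All 4 had groups that did not overlap, 2 higher and 2 lower, against 41.5% of the genes tested (20% higher and 21.5% lower). All 4 had an unadjusted p under 0.05, as did 32.6% of the genes tested. The study had named these genes from a test on the same libraries, so these counts are not independent of how the genes came to be chosen. At 24 h the 4 genes had a median change of -0.40 on the log2 scale, with 2 above and 2 below 0, beside -0.01 for all genes tested. At 1 h against t0, 0 of 4 passed in limma (0.741% of genes tested were called), and 2 had an unadjusted p under 0.05, as did 12.6% of the genes tested. The groups of 2 did not overlap at 1 h, miR396b higher and miR166e lower, against 21.5% of the genes tested (8.89% higher and 12.6% lower). For miR166e the counting intervals of the nearest libraries overlapped, as given above. At 24 h against 1 h, 0 of 4 passed in limma, where 0% of the genes tested were called, and 0 of 4 had an unadjusted p under 0.05, against 18 of 135 genes tested (13.3%). The groups of all 4 overlapped, while 21.5% of the genes tested did not overlap (11.9% higher and 9.63% lower).

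Between 24 h and 1 h the 4 differences were small or wide in error. The log2 fold change of 24 h against 1 h was 0.30 for miR396b, 0.26 for miR159, -0.23 for miR166e and -1.15 for miR172b, with the interval of miR172b from -2.43 to 0.13. In the order of its condition means miR396b ran t0, 1 h, 24 h from low to high, as did miR159, and miR166e ran 24 h, 1 h, t0. For all of these the neighbouring 1 h and 24 h conditions did not differ beyond their spread. miR172b was lowest at 24 h, and its t0 and 1 h means did not differ beyond their spread. The sign of the miR166e difference between 24 h and 1 h turned without 1 h replicate 1, where it was 0.33.

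Each 1 h library can be placed on the way between the t0 mean and the 24 h mean, on log2(normalized count + 1), with 0% at t0 and 100% at 24 h. Replicate 1 stood at 22.7% for miR396b, 21.6% for miR159, 20.7% for miR166e and -60.8% for miR172b, which is beyond t0 on the far side from 24 h. It was the 1 h library farthest from the 24 h mean for all 4 genes, and for 71 of the 135 genes tested. Replicate 2 stood at 89.9% for miR396b, 106% for miR159, 131% for miR166e and 2.37% for miR172b. Replicate 3 stood at 79.3% for miR396b, 45.7% for miR159, 107% for miR166e and 113% for miR172b. The 3 libraries thus give no common position for any of the 4 genes.

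Ratios between the genes within a library do not depend on how libraries are scaled. A ratio of a gene higher at 24 h to a gene lower at 24 h restates those changes and is no separate support. The ratio of miR396b to miR166e was 19.9, 14.5 and 21.8 at 24 h, against 3.07, 2.99 and 3.62 at t0, a difference of 2.52 in mean log2 ratio, or 5.74-fold. At 1 h it was 4.67, 25.1 and 17.8, so that replicate 1 lay near t0 and replicates 2 and 3 near 24 h.

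The ratio of miR159 to miR172b, 2 genes of like abundance, was 3.46, 1.95 and 4.23 at 24 h, against 0.539, 1.03 and 0.726 at t0. miR172b thus exceeded miR159 in 2 of 3 t0 libraries and in no 24 h library, with a mean log2 difference of 2.05, or 4.14-fold. At 1 h the ratio was 0.446, 1.19 and 2.77, a range that takes in all 3 t0 values. The ratio of miR396b to miR159 was 77.8, 126 and 159 at 24 h and 113, 93.0 and 94.1 at t0. The ratio of miR166e to miR172b was 13.6, 16.9 and 30.8 at 24 h and 19.8, 32.1 and 18.9 at t0, with 9.89, 5.04 and 20.1 at 1 h. These last 2 ratios overlapped between 24 h and t0, with differences of 0.22 and -0.26 in mean log2 ratio.

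**Figure D3:**
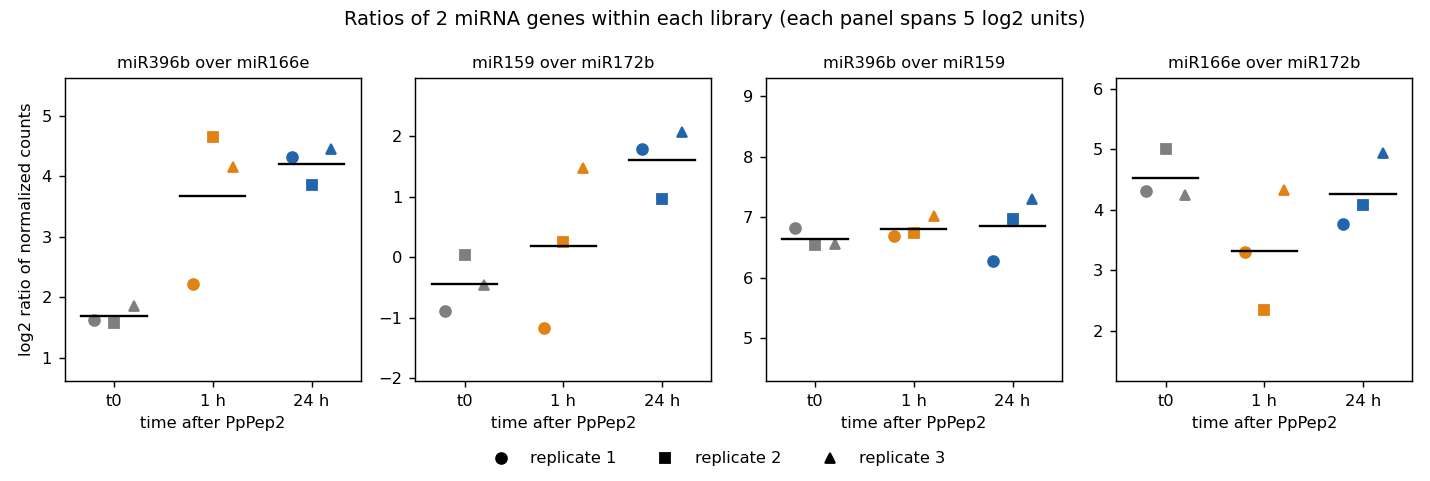
Log2 ratio of the normalized counts of 2 of the genes (vertical axis, the same span in each panel) in each library at t0, 1 h and 24 h, with replicates by symbol and the mean of each condition as a line. The ratio of miR396b to miR166e differs by 2.52 between 24 h and t0, while that of miR396b to miR159 overlaps between these conditions.

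The changes of miR166e and miR172b were among the larger of the genes tested, and those of miR396b and miR159 were nearer the middle. By absolute log2 fold change at 24 h, miR166e ranked 18, miR172b 22, miR396b 44 and miR159 63 of 135. The residual SD on the log2 scale was 0.24 for miR159, 0.26 for miR396b, 0.61 for miR166e and 0.80 for miR172b, beside a median of 0.42 over the genes tested. miR396b thus passed with a change of less than 1 on the log2 scale, whereas miR172b, with a larger change, did not. The residual SD pools all 3 conditions. For miR172b the log2 SD was 1.24 at 1 h, against 0.35 at t0 and 0.50 at 24 h.

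The genes with the closest profile to each of the 4 were found by the root mean square (RMS) difference of log2 values, centred for each gene, over the 9 libraries. For miR159 the nearest was miR171a (RMS 0.13, against a median of 0.57 over the genes tested), whose family acts on GRAS factors of the shoot meristem in Arabidopsis, followed by ENSRNA049997151 (0.16) and ENSRNA049996743 (0.20). For miR396b the nearest were ENSRNA049997141 (0.16), ENSRNA049996257 (0.18) and miR403 (0.19, median 0.67), whose family acts on an ARGONAUTE gene in Arabidopsis. For miR166e they were miR156h (0.32), miR482c (0.35) and miR530 (0.42, median 1.02), of which miR482 acts on NBS-LRR resistance genes in several plants. For miR172b they were miR390 (0.48), miR482c (0.55) and ENSRNA049997109 (0.58, median 1.00), where miR390 starts the production of tasiRNAs that act on auxin response factors in Arabidopsis. Among the 4 genes themselves, the RMS difference was 0.29 between miR159 and miR396b, 0.77 between miR166e and miR172b, and 1.10 to 1.25 for the other pairs. This measure grows with the spread of a gene about its own mean, which was 0.32 for miR159, 0.40 for miR396b, and 0.90 for both miR166e and miR172b, so the first 2 differences were only somewhat smaller than those from a flat profile. These likenesses describe 9 shared libraries and carry no test.

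Other miRNAs that act on developmental factors and that the study names gave a mixed picture. The list, drawn from names chosen by the study on these libraries and so not independent, held miR156g, miR156h, miR167a, miR169d, miR171a, miR171c and miR390. At 24 h against t0, 0 of these 7 rose (5.19% of the genes tested) and 3 fell (miR156h, miR169d and miR390, against 8.89% of the genes tested), and 4 did not pass. All 3 calls were lost with no minimum mean and without t0 replicate 1 or t0 replicate 3, where 0 genes were called. The groups of 6 of 7 did not overlap at 24 h, against 41.5% of the genes tested. Their median log2 fold change was 0.49, with 4 above 0 and 3 below. At 1 h against t0, 0 of 7 passed in limma (0.741% of the genes tested) and 3 had an unadjusted p under 0.05 (12.6%). At 24 h against 1 h, likewise 0 of 7 passed (0%) and 3 had an unadjusted p under 0.05 (13.3%).

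The SPL regulator miR156h, with the highest mean of the 7 over all 9 libraries, had 157, 230 and 177 normalized counts at 24 h, against 794, 495 and 789 at t0 (log2 fold change -1.86, limma adjusted p = 0.0178). At 1 h it had 478, 184 and 203, so that, as for miR166e, replicate 1 was nearest to t0. miR169d, whose family acts on NF-YA factors, had 4.92, 7.84 and 17.6 normalized counts at 24 h, against 58.5, 42.7 and 42.0 at t0 (log2 fold change -2.28, limma adjusted p = 0.0144), with 3, 3 and 14 reads behind the 24 h values. miR156g had 328.0, 23.5 and 158.5 normalized counts at 24 h, against 2.49, 0 and 1.95 at t0, and 0, 114.1 and 163.8 at 1 h. All its 24 h libraries were above its t0 libraries, which held 0 to 4 reads, and it did not pass (limma adjusted p = 0.0643).

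Scaling moved the level of all genes together, so the changes were also taken relative to the median gene tested. The median log2 fold change of all genes tested at 24 h against t0 was -0.01 as deposited and -0.30 with libraries scaled to the same total. It was -0.12 with the most abundant gene left out of that total and 0.27 with the same upper quartile. Relative to this median, the change at 24 h over these scalings was 0.84 to 0.86 for miR396b and 0.62 to 0.64 for miR159. It was -1.68 to -1.66 for miR166e and -1.40 to -1.38 for miR172b. At 1 h the same relative changes were 0.56 to 0.57 for miR396b and 0.385 to 0.387 for miR159. They were -1.43 to -1.42 for miR166e and -0.23 to -0.22 for miR172b. Taking off the median removes most of a scaling by construction, so the narrow ranges are no sign of stability. The values before that step do turn for miR172b at 1 h, as given above.

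**Figure D4:**
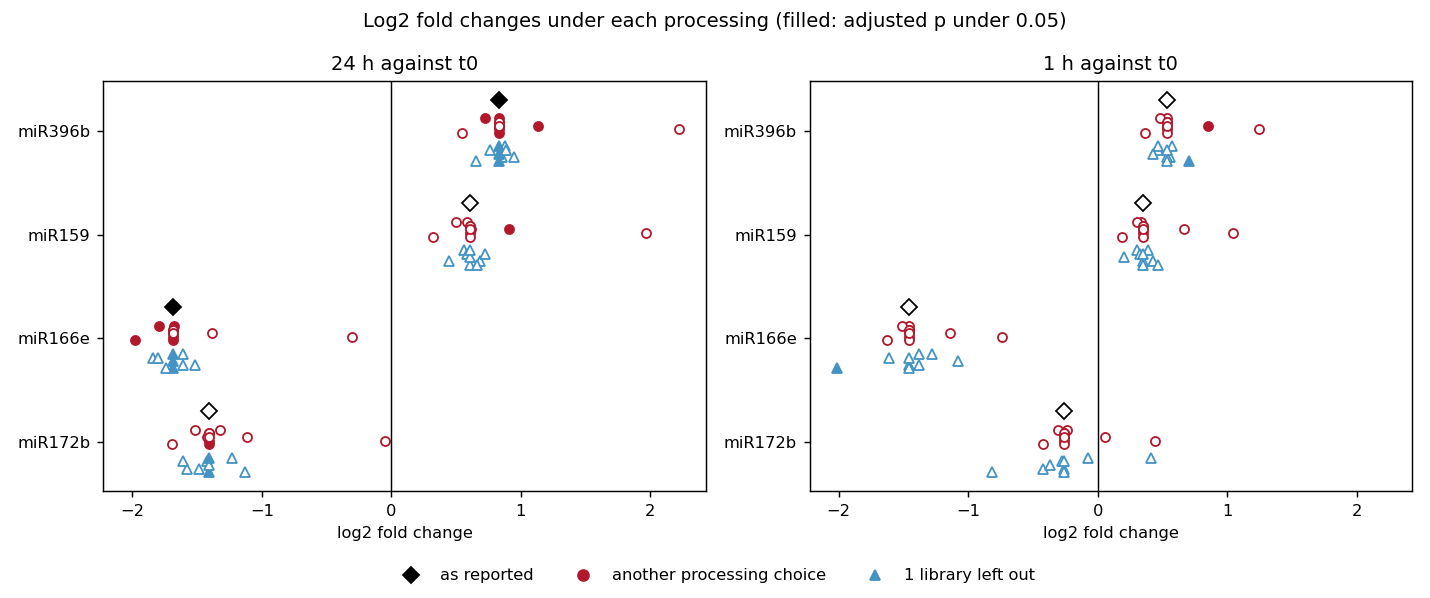
Log2 fold change of each gene (horizontal axis) at 24 h against t0 (left) and 1 h against t0 (right), as reported (diamonds), under another processing choice (circles) and with 1 library left out (triangles), filled where the adjusted p was under 0.05. At 24 h, miR396b and miR159 lie above 0 and miR166e and miR172b below 0 at every point drawn, and at 1 h miR172b lies on both sides of 0. The circles include the setting meant for raw read totals, whose factor was wrong as described in the text.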

How the data were processed

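The deposited signal values are normalized counts per pre_miRNA gene, in which the authors had trimmed reads with Trim Galore 0.6.6, mapped them with STAR 2.5.3a to Prunus_persica_NCBIv2.38, quantified them with RSEM 1.3.0 (seed length 16, Ensembl Plants release 48) and scaled them in DESeq2 1.26.0. RSEM divides reads between similar genes, which can affect genes of 1 family.

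For the tests, limma 3.58.1 (R 4.3.3) was fitted, with its empirical Bayes trend, to log2(normalized count + 1). The fit took 135 genes whose mean reached 5, all 9 libraries and no replicate block, with Benjamini-Hochberg adjustment and an adjusted p under 0.05 as the threshold. The fit, but not the other scalings, was tested on simulated data with the same dispersion for all genes. In each library the values were whole multiples of a step, taken as 1 read (within 0.05 of a read). Counting intervals are exact Poisson 95% intervals and, like the level of 3 reads, cover counting error only. Replicate numbers were not treated as pairs, since the study names no replicate block. Alternatives were other added values, minimum means, scalings and libraries, no trend and a replicate block. Gene names came from the study, since 0 of 210 identifiers matched the reference table. Named genes were the 4 members, 3 nearest profiles for each and up to 3 of the 7 other regulators (largest change in each direction at 24 h, highest mean). The members, lists and tests were chosen with earlier results of these data known.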

Additional observations from a re-analysis of the deposited data

How the results depend on the processing

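At 24 h against t0, 19 genes were called in the fit as reported, 2 of them among the 4 genes described. No minimum mean gave 0 genes (45 at an unadjusted p under 0.05) and 0 of the 4, with miR166e at -1.69 (adjusted p = 0.104) and miR396b at 0.83 (0.0748). Scaling to raw reads gave 10 and 0, with miR166e at -0.30 (0.80) and miR396b at 2.22 (0.0772). Without the limma trend there were 12 and 0, with miR166e at -1.69 (0.0556) and miR396b at 0.83 (0.0631). Only the 6 libraries compared gave 31 genes, with miR172b at -1.41 (0.0168). The same upper quartile gave 31 (21 higher, 10 lower, against 7 and 12 as reported), with miR166e at -1.39 (0.0701) and miR159 at 0.90 (0.0425). The same total gave 22 (4 higher, 18 lower) and 1 of the 4, with miR396b at 0.54 (0.0514). The cause was not tested.

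Whether the replicate numbers pair the libraries could not be decided with 3 libraries per condition. The 9 pairs of libraries with the same number had correlations of their deviations from -0.41 to 0.17, and 3 were over 0.1. Pairs with different numbers ran from -0.37 to 0.39. With the replicate block, 10 genes were called at 24 h against t0 and 0 of the 4. There miR166e was at -1.69 (adjusted p = 0.0635), miR396b at 0.83 (0.0585), miR159 at 0.61 (0.170) and miR172b at -1.41 (0.0752). The SE of miR172b was 0.44 with the block against 0.56 as reported, while that of the other members was larger with it.

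At 1 h against t0, 1 gene was called as reported, 2 with the same total or without the top gene in it, and 7 with the same upper quartile. The last called 1 of the 4, miR396b at 0.85 (0.0186), and miR172b turned to 0.058 (0.940) there. At 24 h against 1 h, 0 genes were called with the same total, without the top gene in it or with the same upper quartile.

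With 1 library left out in turn, the number of genes called ran from 0 to 35 at 24 h against t0, 1 to 18 at 1 h against t0 and 0 to 2 at 24 h against 1 h, and the number among the 4 from 0 to 3, 0 to 2 and 0 to 0. The 0 came without t0 replicate 1 or 3, and the 35 and 18 without 1 h replicate 1. At 24 h against t0 the log2 fold change ran from 0.44 to 0.72 for miR159, -1.84 to -1.52 for miR166e, -1.61 to -1.13 for miR172b and 0.66 to 0.95 for miR396b. At 1 h it ran from 0.21 to 0.46, -2.01 to -1.08, -0.82 to 0.41 and 0.42 to 0.70 in the same order, and at 24 h against 1 h from 0.09 to 0.40, -0.61 to 0.33, -1.82 to -0.59 and 0.12 to 0.42. The log2 ratio at 24 h minus t0 ran from 2.40 to 2.69 for miR396b over miR166e and 1.81 to 2.37 for miR159 over miR172b.

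Planned count tests on recovered reads were not run, since each library had 64 to 80 low values and at least 100 were needed. Depth limits miR172b and miR159 most, at 21 to 28 and 41 to 97 reads in a 24 h library.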
